A study of Homo sapiens with 32 samples.

Results

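The 5 genes of polyamine metabolism, ODC1, AMD1, SRM, SMS and SAT1, were followed at their transcription start sites in androgen-treated prostate cancer cells. Polyamines (putrescine, spermidine and spermine) are small positively charged molecules that bind nucleic acids and that growing cells need. The prostate gland is known for secreting spermine in large amounts. Ornithine decarboxylase (ODC1) makes putrescine from ornithine, and S-adenosylmethionine decarboxylase (AMD1) makes the aminopropyl donor for the later steps. Spermidine synthase (SRM) and spermine synthase (SMS) add aminopropyl groups in turn. Spermidine/spermine N1-acetyltransferase (SAT1) acetylates the products for export or breakdown.

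Each gene was represented by the start sites whose hg19 position and strand fell in a window around it, on chromosome 2 minus for ODC1, 6 plus for AMD1, 1 minus for SRM, and X plus for SMS and SAT1. Of 19534 sites in the first table, 14 fell in these windows (7 for ODC1, 2 for AMD1, 1 for SRM, 1 for SMS and 3 for SAT1). Of 13294 sites in the second table, 5 fell in them, 1 per gene. The files name no genes, so the assignment rests on position and strand alone, and the prostate marker genes and further pathway genes were not analysed here.

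The libraries were made by cap analysis of gene expression (CAGE), in which each tag marks the capped 5′ end of an RNA, from bulk cultures of human prostate cancer cell lines. All cultures spent 3 days in phenol red-free medium with charcoal-stripped serum before hormone was added. In the first experiment LNCaP, an androgen-responsive line, received the synthetic androgen R1881 for 0, 3, 6, 12, 18, 48 or 72 h, with 2 libraries per time. The labels of these libraries give 1 nM R1881, while a protocol text shared by all samples gives 10 nM for 24 h, and the first is used here. No vehicle library after 0 h accompanied them, so R1881 and time in culture cannot be told apart there. In the second experiment LNCaP and BicR, a second line, named only by this abbreviation, were sampled before treatment and after 6 h and 24 h with ethanol (the vehicle), 10 nM dihydrotestosterone (DHT), 1 µM of the androgen receptor blocker bicalutamide, or DHT plus bicalutamide. That experiment has 1 library per line, treatment and time.

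The time course libraries held 128463 to 3837493 tags in the table, and those of the second experiment 4139807 to 7753336. Levels are given as deposited in RPM, tags scaled to a common library total, and since a CAGE tag counts an RNA end they need no division by gene length. The 6 h and 18 h libraries of replicate 2 stood apart. Of 2472 sites with at least 50 RPM at 0 h, 13.8% and 11.9% were more than 4-fold below their 0 h level in these libraries, against 0 to 6.35% in the others. Nothing in the labels says that the 2 libraries of a time came from separate cultures, so p-values measure the spread between these libraries. In bulk cultures, fewer cells of a kind and less RNA per cell cannot be told apart.

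In its window each gene had 1 main start site, the one with the most tags, and the same 5 positions led in both tables. For ODC1 it was the cluster at chr2:10588244-10588675 (minus strand, summit named 10588452), for AMD1 chr6:111195958-111196132 (plus, 111195987), for SRM chr1:11119822-11120135 (minus, 11120074), for SMS chrX:21958771-21958907 (plus, 21958850) and for SAT1 chrX:23801234-23801517 (plus, 23801289), all hg19. In the second table the same sites are listed as single positions. Shares were taken of the tags in a gene's window, and starts outside it, such as the upstream AMD1 start of RefSeq, were not counted. In a time course library the main site took 94.87 to 99.46% for ODC1, 98.53 to 100% for AMD1 and 96.25 to 99.35% for SAT1. The other 9 sites, 6 of them downstream in ODC1, were sparse, at 26.6 RPM or less in each library.

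The promoters of ODC1, SAT1 and SRM are shown because, in the time course, the highest mean level of ODC1 came at 12 h, that of SAT1 at 72 h and that of SRM at 0 h. They are the 250 bases before the RefSeq start on GRCh38.p14, 5′ to 3′ on the coding strand, at chr2:10448328-10448577 (minus), chrX:23782923-23783172 (plus) and chr1:11060019-11060268 (minus). They were not aligned to the hg19 sites. Capitals mark TATAA, GC boxes (GGGCGG), E-boxes (CACGTG) and CCAAT boxes on either strand.
ODC1: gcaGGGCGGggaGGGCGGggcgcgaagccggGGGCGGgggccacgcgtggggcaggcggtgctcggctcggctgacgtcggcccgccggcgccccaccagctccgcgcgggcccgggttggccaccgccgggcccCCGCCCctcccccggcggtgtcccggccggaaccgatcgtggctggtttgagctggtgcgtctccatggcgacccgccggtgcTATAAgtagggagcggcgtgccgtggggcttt
SAT1: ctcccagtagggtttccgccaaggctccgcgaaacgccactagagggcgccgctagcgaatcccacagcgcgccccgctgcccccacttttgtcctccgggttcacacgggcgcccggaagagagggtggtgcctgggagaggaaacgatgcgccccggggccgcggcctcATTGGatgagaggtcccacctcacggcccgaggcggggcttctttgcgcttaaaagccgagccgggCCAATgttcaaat
SRM: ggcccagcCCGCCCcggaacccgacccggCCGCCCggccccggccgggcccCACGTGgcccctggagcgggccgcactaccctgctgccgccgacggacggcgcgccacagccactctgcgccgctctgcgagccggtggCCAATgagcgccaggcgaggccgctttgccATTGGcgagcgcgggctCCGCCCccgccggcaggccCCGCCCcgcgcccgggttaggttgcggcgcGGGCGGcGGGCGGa
The ODC1 promoter had TATAA at 32 bases before the start and 6 GC boxes in the 300-base window that runs 50 bases past it. The SAT1 promoter had 2 CCAAT boxes, 79 and 13 bases before the start, and 0 GC boxes. SRM had 1 E-box at 199 bases before the start, 6 GC boxes and 2 CCAAT boxes. A second RefSeq promoter of ODC1, further downstream, had 2 E-boxes. AMD1 promoters at the downstream of its 2 start regions had TATAA at 29 or 28 bases before the start, and SMS had 1 GC box and 1 CCAAT box. Among 35116 RefSeq promoters of this length, 20.4% held TATAA, 45% a GC box, 34.6% CCAAT and 7.26% an E-box. The androgen response element half-site AGAACA, held by 14.8%, and TATAAA, held by 11.5%, were in none of the windows of the 5 genes. TATAA was searched after the sequences had been seen, and the letters overlap those of TATAAA.

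In LNCaP cells given R1881, the main sites of SAT1 and ODC1 changed over time. The mean of SAT1 rose at each later time, and at 72 h its fitted level was 12.1-fold (95% interval 5.47 to 26.9) that of 0 h. From 48 h to 72 h SAT1 fell in replicate 1 (1759 to 1518 RPM) and rose in replicate 2 (1797 to 2825 RPM). ODC1 stood highest at 12 h. At 72 h its replicates parted, at 485 and 146 RPM against 249 and 193 RPM at 0 h (1.45-fold, 95% interval 0.656 to 3.22). SMS was also highest in the middle times, AMD1 at 72 h, and SRM was below its 0 h mean at each later time. Of the 5 main sites, SAT1 and ODC1 passed the joint test of all times (adjusted p = 0.00888 and 0.0485), where 1.6% of 15999 tested sites passed. In 14 omissions of 1 library each SAT1 passed it 13 times (adjusted p from 0.00657 to 0.0657) and ODC1 3 times (0.036 to 0.135). Libraries with the same replicate number deviated together, but what a number stands for is not stated, and number and depth cannot be told apart. With the replicate number as a block SMS passed the joint test too (adjusted p = 0.00671), against a background of 18.1%. Adjusted p-values are from edgeR's quasi-likelihood test over all tested sites, and a site passed at an adjusted p under 0.05.

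**Figure D1:**
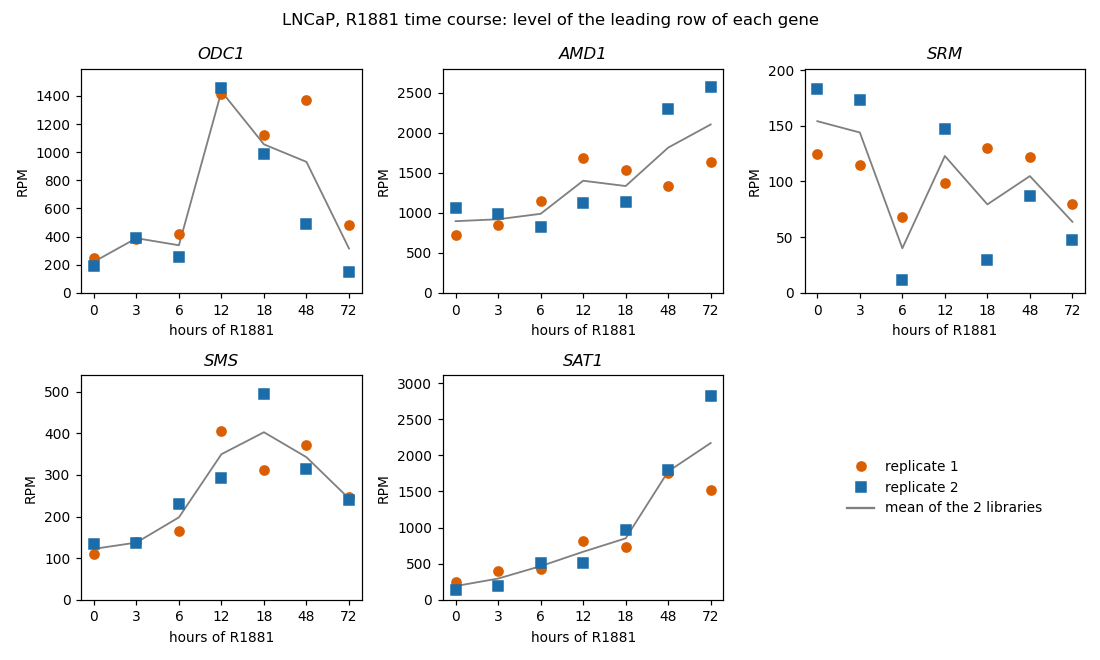
Level of the main start site of each gene in RPM (vertical axis, starting at 0) against hours of R1881 in LNCaP (times evenly spaced); circles are replicate 1, squares replicate 2, and the line joins the means of the 2 libraries. ODC1 reached 1411 and 1454 RPM at 12 h, and SAT1 reached 1518 and 2825 RPM at 72 h.

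By single time, 0 of the 5 genes passed at 3 h, 6 h and 12 h against 0 h, where 0%, 0% and 0.231% of all sites passed. At an unadjusted p under 0.05 the edgeR test had 0 genes at 3 h, 2 at 6 h (SRM and SAT1) and 3 at 12 h (ODC1, SMS and SAT1), beside 269, 2449 and 996 of all sites. DESeq2 called 0, 0 and 1 (ODC1). Its shares of all sites at 3 h and 6 h are not given here, so the counts of 0 have no background. SAT1 alone passed at 18 h, 48 h and 72 h, against backgrounds of 0.988%, 1.89% and 2.5%. With the replicate block the counts of genes were 0, 1, 3, 3, 3 and 2 at 3, 6, 12, 18, 48 and 72 h, against backgrounds of 0.288%, 6.61%, 1.98%, 13%, 8.54% and 12.2%. The median log2 change of the 5 genes was 1.51, 1.85, 1.54 and 1.06 for 12, 18, 48 and 72 h, beside −0.02, −0.11, −0.02 and 0.01 for all sites.

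ODC1, which makes putrescine, was at 249 and 193 RPM at 0 h in replicates 1 and 2. It was at 386 and 392 RPM at 3 h and at 422 and 255 RPM at 6 h. Levels were 1411 and 1454 RPM at 12 h and 1121 and 991 RPM at 18 h. All 4 libraries of 12 h and 18 h stood well above all 6 of the earlier times. At 48 h the replicates parted, at 1374 and 489 RPM, and at 72 h they were at 485 and 146 RPM. In order of their means the times ran 12 h (1432 ± 30.0 RPM, SD, n = 2), 18 h (1056 ± 92.5), 48 h (931 ± 626), 3 h (389 ± 4.40), 6 h (338 ± 118), 72 h (316 ± 239) and 0 h (221 ± 39.9). Among neighbours in this order, 18 h and 48 h, 3 h and 6 h, 6 h and 72 h, and 72 h and 0 h overlapped between libraries.

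The log2 change of ODC1 was 2.69 (SE 0.569) at 12 h, a fold of 6.46 with a 95% interval of 2.79 to 15, and it missed the threshold (adjusted p = 0.0721). With the replicate block it was 2.74 and passed (adjusted p = 0.00134). ODC1 at 18 h (log2 change 2.37, adjusted p = 0.0568) and at 48 h (2.12, adjusted p = 0.0706) also missed it and passed with the block (adjusted p = 0.00235 and 0.0053). DESeq2, without the block, called ODC1 at all 3 times (adjusted p = 0.00127, 0.00325 and 0.0172; backgrounds 0.782%, 3.76% and 2.39%). In edgeR it passed at 18 h with no filter (adjusted p = 0.0473) and at 48 h without the replicate 2 libraries of 6 h and 18 h (0.0488). At 72 h the change was 0.54 (SE 0.538, adjusted p = 0.723), and its interval of −0.61 to 1.69 leaves room for a rise or a fall. Set directly against 12 h, ODC1 at 72 h was lower by a log2 change of −2.15 (SE 0.557, adjusted p = 0.249; 0.0375% of all sites passed), and with the block the fall passed (−2.30, adjusted p = 0.00535; background 3.21%). Set against 48 h, the change was −1.58 (unadjusted p = 0.0114, adjusted p = 1 in edgeR; 0% of sites passed, 77 at an unadjusted p under 0.05, and 0 in DESeq2). Both of these contrasts were chosen after the levels were seen. At 48 h the value rests on replicate 1: without that library the log2 change was 1.24 (adjusted p = 0.614). Without the replicate 2 libraries of 6 h and 18 h the log2 change at 18 h was 2.38 (adjusted p = 0.129) and the joint test did not pass (adjusted p = 0.0673).

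SAT1, which starts polyamine breakdown, was at 245 and 134 RPM at 0 h and at 396 and 191 RPM at 3 h. It was at 428 and 503 RPM at 6 h, 819 and 511 RPM at 12 h, and 732 and 969 RPM at 18 h. At 48 h it was at 1759 and 1797 RPM and at 72 h at 1518 and 2825 RPM. The 4 late libraries stood above all 10 of the earlier times, and no library of 6 h or later overlapped 0 h. In order of the means, 72 h (2171 ± 925 RPM, SD, n = 2) was followed by 48 h (1778 ± 26.5), 18 h (851 ± 167), 12 h (665 ± 217), 6 h (465 ± 53.7), 3 h (293 ± 145) and 0 h (190 ± 78.8). Libraries of 72 h and 48 h overlapped, as did those of 18 h and 12 h and those of 3 h and 0 h.

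SAT1 rose at 18 h by a log2 change of 2.29 (SE 0.512, adjusted p = 0.0497), at 48 h by 3.28 (SE 0.531, adjusted p = 0.00769) and at 72 h by 3.60 (SE 0.539, adjusted p = 0.00386). The 18 h call sits at the threshold: without the replicate 2 libraries of 6 h and 18 h the log2 change was 1.99 (adjusted p = 0.154). With the replicate block SAT1 also passed at 12 h (log2 change 1.80, adjusted p = 0.041). The 18 h call was also lost without 0 h replicate 1 or 2 (adjusted p = 0.207 and 0.247), without 18 h replicate 2 alone (1.91, adjusted p = 0.274) and with no TMM factor, and of the 4 omissions of 1 library it held in 1, that of 18 h replicate 1 (0.0411). The 48 h call was lost without 0 h replicate 1 (0.0585), 0 h replicate 2 (0.144) or 48 h replicate 2 (0.0539), and the 72 h call without 0 h replicate 2 (0.09) or 72 h replicate 2 (0.0586). The log2 change at 48 h and 72 h stayed between 2.91 and 4.12 in these omissions. A comparison that does not use 0 h, of 48 h and 72 h against 3 h and 6 h with 4 libraries each, gave SAT1 a log2 change of 2.27 (SE 0.384, adjusted p = 0.00441), and SAT1 was the 1 gene of 5 that passed there (6.32% of 11193 sites, 8.32% with the block). It passed in each of the 8 omissions of 1 library there (adjusted p from 0.00112 to 0.0167).

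SMS, which makes spermine, was at 111 and 134 RPM at 0 h, 140 and 135 RPM at 3 h, and 165 and 231 RPM at 6 h. It was at 407 and 293 RPM at 12 h, 311 and 494 RPM at 18 h, 371 and 314 RPM at 48 h, and 247 and 240 RPM at 72 h. All libraries from 12 h on were above all of those up to 6 h. In order of the means, 18 h (403 ± 130 RPM, SD, n = 2), 12 h (350 ± 80.2) and 48 h (343 ± 40.6) overlapped between libraries, and below them 72 h (243 ± 4.49), 6 h (198 ± 46.4), 3 h (137 ± 3.11) and 0 h (122 ± 16.3) did not overlap with their neighbours. The log2 change of SMS was 1.51, 1.85 and 1.54 for 12, 18 and 48 h (SE 0.417 to 0.423), with adjusted p-values of 0.232, 0.0518 and 0.0816. With the replicate block all 3 passed (0.0426, 0.00532 and 0.0128), and DESeq2 called 18 h and 48 h (0.00177 and 0.0216). At 72 h the change was 1.06 (adjusted p = 0.214, and 0.0763 with the block). Without the replicate 2 libraries of 6 h and 18 h the change at 18 h was 1.38 (adjusted p = 0.148), while that at 48 h passed (1.54, adjusted p = 0.0169).

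AMD1, which supplies the aminopropyl donor, had the highest level of the 5 sites at 0 h, at 726 and 1064 RPM. It was at 848 and 988 RPM at 3 h, 1146 and 828 RPM at 6 h, 1680 and 1119 RPM at 12 h, and 1536 and 1130 RPM at 18 h. At 48 h it was at 1331 and 2294 RPM and at 72 h at 1629 and 2574 RPM. The replicates were far apart at most times, and every pair of neighbours in the order of means overlapped, from 72 h (2102 ± 668 RPM, SD, n = 2) down to 0 h (895 ± 239). The log2 change of AMD1 at 72 h was 1.32 (SE 0.446, 95% interval 0.36 to 2.27) and missed the threshold (adjusted p = 0.147), passing with the block (1.31, adjusted p = 0.0395). Late against early times the log2 change was 0.96 (SE 0.312, adjusted p = 0.0855), where all 4 late libraries were above all 4 early ones.

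SRM, which makes spermidine, was at 125 and 183 RPM at 0 h, 115 and 173 RPM at 3 h, 68.4 and 11.7 RPM at 6 h, and 98.3 and 147 RPM at 12 h. It was at 130 and 29.2 RPM at 18 h, 122 and 87.4 RPM at 48 h, and 80.1 and 47.4 RPM at 72 h. The lowest values, 11.7 and 29.2 RPM, came from the 2 libraries that stood apart. Neighbours in the order of means, from 0 h (154 ± 41.1 RPM, SD, n = 2) through 3 h, 12 h, 48 h, 18 h and 72 h to 6 h (40.0 ± 40.1), overlapped throughout. With all libraries and without the block SRM missed the threshold at each time in edgeR (lowest adjusted p = 0.217, at 6 h, log2 change −2.26, SE 0.767), and with the block the 6 h change passed (−2.49, adjusted p = 0.0298). Without the block it passed when 6 h replicate 1 was left out (−3.29, adjusted p = 0.0489; background 1.68%). It also did without the 4 libraries under 500000 tags, all of replicate 1 (−3.47, adjusted p = 0.016; background 7.91%), where SRM passed at 18 h too (−2.23, adjusted p = 0.0351; background 8.44%). In both omissions the 6 h value is that of replicate 2 alone, a library that stood apart. Without the libraries under 500000 tags the 18 h value is also that of replicate 2 alone, the other library that stood apart, with 47 tags. Without the 2 libraries that stood apart the 6 h change was −1.28 (adjusted p = 0.59). The 6 h value rests on 12 tags in replicate 1 and 20 in replicate 2. At 72 h the change was −1.23 (SE 0.666, adjusted p = 0.408), with a 95% interval of −2.65 to 0.19.

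**Figure D2:**
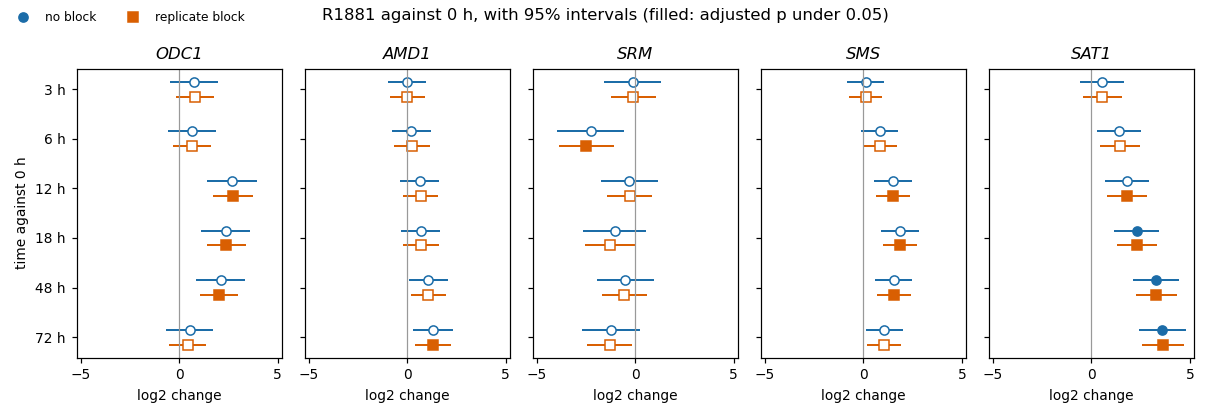
Log2 change of each main start site against 0 h (horizontal axis) at each time of R1881 (vertical axis), with 95% intervals, without the replicate block (blue circles) and with it (orange squares); filled symbols have an adjusted p under 0.05 in edgeR. SAT1 rises to 3.60 at 72 h, and ODC1 is at 2.69 at 12 h and 0.54 at 72 h. SRM is below 0 at each time, but without the block its intervals include 0 except at 6 h. With the block its intervals at 6 h, 18 h and 72 h lie below 0.

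Relative to ODC1, SAT1 was below it at 12 h and above it at 72 h in both replicates. SAT1 tags per ODC1 tag, a ratio within a library and so free of its depth, were 0.984 and 0.694 at 0 h. They were 0.58 and 0.352 at 12 h, the lowest of each replicate, and 3.13 and 19.3 at 72 h. At 48 h the ratios were 1.28 and 3.68, between those of 12 h and 72 h in each replicate. At 3 h the replicates differed in direction from their own 0 h value, with 1.03 in replicate 1 and 0.487 in replicate 2, and at 6 h the ratios were 1.01 and 1.97. The ratio of SMS to SRM was 0.886 and 0.731 at 0 h, 1.22 and 0.781 at 3 h, and between 1.99 and 5.06 in the 12 h, 48 h and 72 h libraries. It was 2.42 and 19.8 at 6 h and 2.40 and 16.9 at 18 h, where the high values are those of the 2 replicate 2 libraries that stood apart, with 20 and 47 SRM tags. These ratios were chosen after the levels were seen and were not tested.

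Of the 9 sparse sites, 3 had enough tags to be tested and 0 passed in edgeR (lowest adjusted p = 0.109). With the replicate block, a site inside ODC1 at chr2:10584638-10584796, 3814 bases downstream of the main summit, passed at 18 h (log2 change 5.33, adjusted p = 0.00858). It had 0 and 1 tags at 0 h and 2 and 13 tags at 18 h, so the fitted size depends on very few tags. A site inside SAT1 at chrX:23802692-23802718, 1417 bases downstream, passed at 48 h (2.83, adjusted p = 0.0163) and 72 h (2.76, adjusted p = 0.0141) with the block. It had 3 and 6 tags at 0 h, 5 and 59 tags at 48 h, and 9 and 62 tags at 72 h. Against 0 h, both sites moved in the direction of their gene's main site at these times, and both were far below it. The filter kept both sites through libraries after 0 h, where they were higher. The shared direction was thus favoured in advance and is no separate support. Between 12 h and 72 h the replicates of the SAT1 site parted. Replicate 1 went from 26.6 to 9.13 RPM (10 and 9 tags) and replicate 2 from 8.25 to 14.3 RPM (21 and 62 tags). With the block, 72 h against 12 h gave this site a log2 change of −0.03 (95% interval −1.44 to 1.38). The main site had 1.82 (0.86 to 2.78) there. So few tags do not settle whether the sparse site followed the later rise.

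In the second experiment, ODC1, SAT1 and SMS were higher with DHT than with ethanol in BicR cells, by 2.80-fold (95% interval 2.34 to 3.34), 2.04-fold (1.59 to 2.61) and 1.78-fold (1.37 to 2.32). AMD1 and SRM did not pass. In LNCaP cells none of the 5 passed with DHT. Adding bicalutamide to DHT left ODC1 and SAT1 in BicR above ethanol, ODC1 at 1.83-fold and SAT1 at 2.10-fold. Here 6 h and 24 h stood in for replicates, so tests reflect how alike the treatment differences were at those times. SDs give the spread of a treatment's level between 6 h and 24 h.

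**Figure D3:**
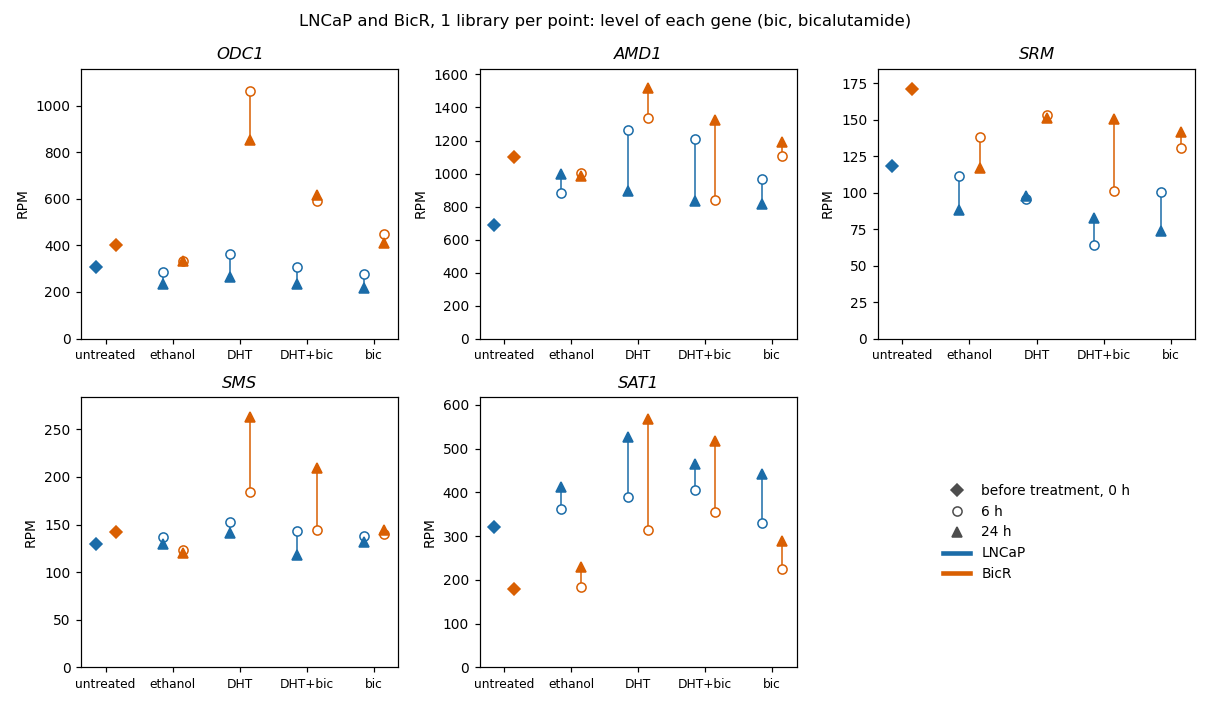
Level of the main start site of each gene in RPM (vertical axis, starting at 0) by treatment in LNCaP (blue) and BicR (orange), 1 library per point; diamonds are before treatment, open circles 6 h, triangles 24 h, and a line joins the times of a treatment. ODC1 in BicR is at 1062 and 854 RPM with DHT against 334 and 334 RPM with ethanol.

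ODC1 in BicR was at 403 RPM before treatment and at 334 RPM at both 6 h and 24 h with ethanol. With DHT it was at 1062 RPM at 6 h and 854 RPM at 24 h, with DHT and bicalutamide at 590 and 617 RPM, and with bicalutamide alone at 447 and 409 RPM. The order of DHT, DHT with bicalutamide, bicalutamide and ethanol held at both times without overlap. In LNCaP ODC1 was at 309 RPM before treatment, 287 and 232 RPM with ethanol, 361 and 263 RPM with DHT, 306 and 235 RPM with DHT and bicalutamide, and 276 and 218 RPM with bicalutamide. All 9 LNCaP libraries lay between 218 and 361 RPM, and the treatments overlapped. The rise with DHT in BicR was a log2 change of 1.48 (SE 0.117, adjusted p = 0.000313), and ODC1 ranked 1 by p among 13294 sites. Of all sites, 3.33% passed in that comparison. In each omission of a BicR library of that comparison it passed (adjusted p from 0.00242 to 0.00675).

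In LNCaP the change of ODC1 with DHT was 0.30 (SE 0.116, unadjusted p = 0.0217, adjusted p = 0.781), with a 95% interval of 0.05 to 0.56. The response of ODC1 to DHT differed between the lines by 1.18 on the log2 scale (SE 0.164, 95% interval 0.82 to 1.53). It also ranked 1 by p, but its adjusted p was 0.134, and 0% of all sites passed (751 at an unadjusted p under 0.05). DESeq2 called the ODC1 difference (adjusted p = 5.9e-06; background 0.0226%), and so did edgeR with the 6 h library of combined DHT and bicalutamide in BicR left out (adjusted p = 0.0385); across the other edgeR settings it ranged from 0.0978 to 1. With DHT and bicalutamide against DHT alone in BicR, ODC1 was lower by −0.61 (SE 0.115, adjusted p = 0.104; 0.128% of all sites passed), a change that DESeq2 called (adjusted p = 0.0246; background 0.0677%). Against ethanol it rose by 0.87 (SE 0.116, adjusted p = 0.00342; background 2.64%), a call that ended with no term for time in the fit (0.87, adjusted p = 0.129; background 0.572%), where the DHT call held (adjusted p = 0.00827; background 1.4%). With bicalutamide alone it was 0.42 above ethanol (SE 0.115, adjusted p = 0.294; background 0.188%).

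SAT1 in BicR was at 179 RPM before treatment and at 184 and 230 RPM with ethanol at 6 h and 24 h. With DHT it was at 313 and 568 RPM, with DHT and bicalutamide at 355 and 516 RPM, and with bicalutamide alone at 224 and 290 RPM. Each DHT library, with or without bicalutamide, stood above all 5 BicR libraries without DHT. In LNCaP SAT1 was at 322 RPM before treatment, 361 and 412 RPM with ethanol, 390 and 525 RPM with DHT, 405 and 465 RPM with DHT and bicalutamide, and 330 and 442 RPM with bicalutamide. In both lines and all 4 treatments SAT1 was higher at 24 h than at 6 h, ethanol included. The rise of SAT1 with DHT in BicR was 1.03 (SE 0.164, adjusted p = 0.00462), but without the BicR DHT library at 24 h, or the ethanol one, it missed the threshold (0.70, adjusted p = 0.073, and 0.89, adjusted p = 0.0649). With DHT and bicalutamide it rose by 1.07 over ethanol (SE 0.164, adjusted p = 0.00629), and without the ethanol library at 24 h that call was lost (adjusted p = 0.0524). With no term for time in the fit, SAT1 missed the threshold in both comparisons (1.07, adjusted p = 0.0789, and 1.09, adjusted p = 0.118). Between DHT with bicalutamide and DHT alone SAT1 differed by 0.04 (SE 0.162, 95% interval −0.31 to 0.40).

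SMS in BicR was at 142 RPM before treatment, 123 and 120 RPM with ethanol, 185 and 263 RPM with DHT, 144 and 209 RPM with DHT and bicalutamide, and 140 and 144 RPM with bicalutamide. The 24 h libraries with DHT were the highest, at 263 and 209 RPM. In LNCaP the 9 libraries lay between 118 and 152 RPM, with a median of 137. The rise of SMS with DHT in BicR was 0.83 (SE 0.175, adjusted p = 0.0223), and without either 24 h library of DHT or ethanol it missed the threshold (0.57, adjusted p = 0.251, and 0.63, adjusted p = 0.199), as it did with no term for time (0.85, adjusted p = 0.0577). With DHT and bicalutamide it was 0.53 above ethanol (SE 0.175, adjusted p = 0.145).

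AMD1 in BicR was at 1099 RPM before treatment, 1002 and 986 RPM with ethanol, 1337 and 1517 RPM with DHT, 840 and 1322 RPM with DHT and bicalutamide, and 1107 and 1189 RPM with bicalutamide. Both DHT libraries stood above the other 7 of BicR. In LNCaP AMD1 ranged from 687 to 1266 RPM with a median of 897. It was above ethanol at 6 h of DHT (1266 against 884 RPM) and below it at 24 h (897 against 996 RPM). The change with DHT in BicR was 0.49 (SE 0.199, 95% interval 0.05 to 0.92, adjusted p = 0.259) and in LNCaP 0.22 (SE 0.199, −0.22 to 0.65, adjusted p = 0.991).

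SRM in BicR was at 171 RPM before treatment, 139 and 117 RPM with ethanol, 153 and 151 RPM with DHT, 101 and 150 RPM with DHT and bicalutamide, and 131 and 142 RPM with bicalutamide. Both DHT libraries were above the other 6 treated ones and below the untreated one. In LNCaP the 9 libraries lay between 64.5 and 118 RPM with a median of 95.6. The change of SRM with DHT was 0.22 in BicR (SE 0.192, 95% interval −0.20 to 0.64, adjusted p = 0.676) and 0.01 in LNCaP (SE 0.194, −0.42 to 0.43, adjusted p = 1).

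**Figure D4:**
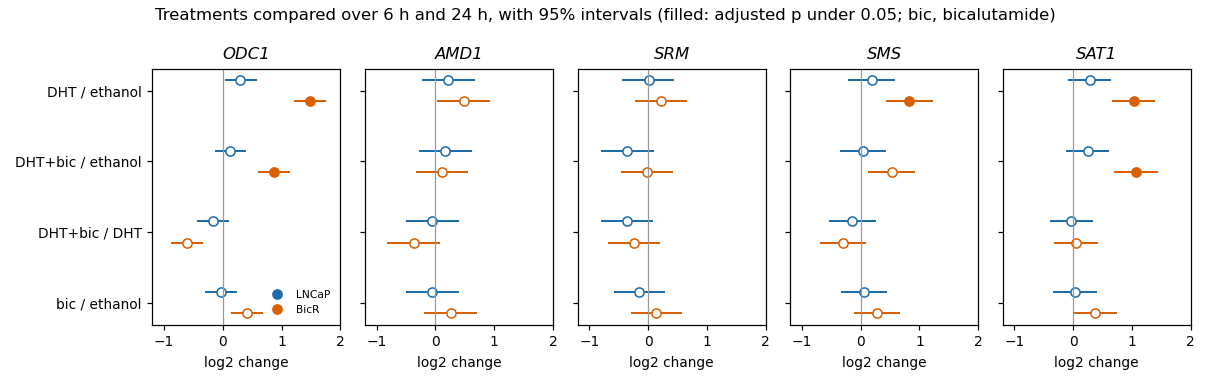
Log2 change of each main start site between treatments (vertical axis; bic is bicalutamide) over 6 h and 24 h, with 95% intervals, in LNCaP (blue) and BicR (orange); filled circles have an adjusted p under 0.05 in edgeR. ODC1, SMS and SAT1 pass with DHT in BicR, at 1.48, 0.83 and 1.03, and no LNCaP circle is filled.

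Counted over the genes, 3 of 5 passed with DHT in BicR, all higher, beside 3.33% of all sites, and 2 of 5 with DHT and bicalutamide against ethanol, beside 2.64%. With DHT, with bicalutamide and with both against ethanol in LNCaP, and with both against DHT, the counts were 0 of 5 in edgeR and in DESeq2. The edgeR backgrounds there were 0.113%, 0%, 0.00752% and 0%, with 733, 252, 828 and 238 sites at an unadjusted p under 0.05, where ODC1 with DHT was the 1 member. With bicalutamide alone in BicR, and for DHT with bicalutamide against DHT in BicR, 0 of 5 passed, with 2 (ODC1 and SAT1) and 1 (ODC1) at an unadjusted p under 0.05 in edgeR, beside 803 and 1157 of all sites. DESeq2 called 0 and 1 of the 5 there. For the difference of the DHT responses between lines, 3 members (ODC1, SMS and SAT1) had an unadjusted p under 0.05. For that to bicalutamide 1 did (ODC1), where 0 of 5 and 0% of all sites passed (417 at an unadjusted p under 0.05), and DESeq2 called 0 of the 5. For the comparisons here where DESeq2 called 0 of the 5, its share of all sites is not given. Those counts therefore have no background. The median log2 change of the 5 genes with DHT was 0.83 in BicR and 0.22 in LNCaP, beside −0.01 for all sites in each line.

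With ethanol, the lines themselves differed at ODC1 and SAT1, in opposite directions. ODC1 was higher in BicR by a log2 change of 0.43 (SE 0.116, adjusted p = 0.034), at 334 ± 0.0678 RPM against 260 ± 38.9 RPM in LNCaP (SD over 6 h and 24 h, n = 2). SAT1 was lower by −0.84 (SE 0.163, adjusted p = 0.00839), at 207 ± 33.0 against 387 ± 35.7 RPM. These are 2 of 5 genes, where 11% of all sites passed. Each of the 4 omissions of an ethanol library ended the ODC1 call (adjusted p from 0.102 to 0.213). For SAT1 the omission of LNCaP ethanol at 6 h or of BicR ethanol at 24 h did (adjusted p = 0.0749 and 0.0598). With no term for time neither passed (ODC1 adjusted p = 0.31, SAT1 0.0997; background 3.39%). SAT1 tags per ODC1 tag were above 1 in all 9 LNCaP libraries of this experiment, from 1.04 to 2.03. They were below 1 in all 9 BicR libraries, from 0.295 (6 h of DHT) to 0.837. LNCaP libraries of the time course also lay below 1, including those of 0 h (0.984 and 0.694) and 12 h (0.58 and 0.352). The ratio was not tested.

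**Figure D5:**
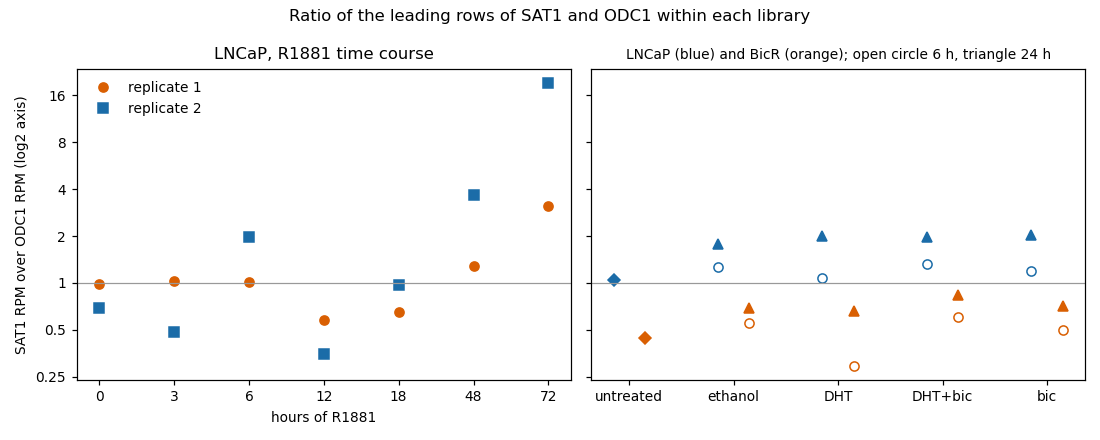
Tags at the main SAT1 site per tag at the main ODC1 site within each library (vertical axis, log scale) over hours of R1881 in LNCaP (left; circles replicate 1, squares replicate 2) and by treatment in the second experiment (right; LNCaP blue, BicR orange, open circles 6 h, triangles 24 h, diamonds before treatment). The ratio reaches 3.13 and 19.3 at 72 h of R1881, and every BicR library lies below 1.

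Across the 18 libraries of the second experiment, with each line's mean removed, the log2 levels of ODC1 and SMS had a Pearson correlation of 0.804, those of SMS and SAT1 0.774, and those of AMD1 and SMS 0.688. ODC1 and SAT1 were at 0.560, ODC1 and AMD1 at 0.516, and AMD1 and SAT1 at 0.388. SRM stood at −0.130 with SAT1, 0.079 with AMD1, 0.222 with ODC1 and 0.267 with SMS. Among 10566 sites with a mean of at least 10 RPM, the sites most like ODC1 outside the 5 windows were at chr1 position 167691218 plus strand (0.935) and chr6 position 4135808 minus strand (0.914). For SMS they were at chr2 position 120124566 plus (0.965) and chr1 position 167905232 minus (0.897), and for SAT1 at chr15 position 45003714 plus (0.970) and chr6 position 10723302 plus (0.918). For AMD1 they were at chr13 positions 77566218 plus and 77901220 minus (0.905 each), and for SRM at chr14 positions 23398584 minus (0.905) and 96001386 plus (0.897). The points share their libraries, depth and treatments, and these correlations are descriptions.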

How the data were processed

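CAGE tags were read on a HeliScope sequencer, per the labels' protocols, and the genome build was hg19, per the submitters' processing notes. The aligner and the method that grouped tags into sites are not given in the sources used here. The authors deposited raw tag counts per site and RPM values, per the file headers; in the deposited RPM values a library's counts share 1 factor, and the table's tags are 75.57 to 90.14% of the total that this factor implies. The members and gene lists were chosen with earlier results of these data known.

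Counts were tested in R 4.3.3 with edgeR 4.0.16 (TMM factors, quasi-likelihood F test, filterByExpr with a minimum count of 10, Benjamini-Hochberg over all sites of a table, threshold 0.05). The SE is the log2 change over the square root of F, and intervals are at 95%. The R1881 fit had a coefficient per time over 14 libraries (15999 sites kept). The late against early fit used 8 libraries (11193 sites). The second fit had a coefficient per line and treatment and a term for time in each line (13294 sites). Same-numbered replicates of the time course deviated together (correlation 0.150 to 0.586, median 0.342, in 21 of 21 pairs of times, 13837 sites). What a number stands for is not stated. Replicate 1 libraries held 128463 to 1075743 tags and replicate 2 libraries 1357958 to 3837493, so replicate number and depth cannot be told apart. The main R1881 fit has no replicate block, and a fit with the block is given beside it. Values named were those of the main site of each gene, and of any other site that passed a test. DESeq2 1.42.0, no TMM factor, other filters, no time term, summed tags per gene, and omitted libraries were alternatives. The tests were checked on simulated data. No row name matched the gene table (0 in each table), so the other pathway genes and prostate markers fixed as lists were not analysed here. RefSeq promoters (GRCh38.p14) were matched by symbol for 5 of 5 genes.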

Additional observations from a re-analysis of the deposited data

How the results depend on the processing

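The counts below are of the 5 genes whose main site passed. The share of all sites called under the same setting follows in parentheses. With the replicate block 1 gene passed for 6 h of R1881 (6.61%), 3 for 12 h (1.98%), 3 for 18 h (13%), 3 for 48 h (8.54%), 2 for 72 h (12.2%), 3 in the joint test (18.1%) and 2 for 72 h against 12 h (3.21%). With the block and without the replicate 2 libraries of 6 h and 18 h, a setting added after the data were seen, the counts were 3 for 12 h (3.77%), 2 for 18 h (2.15%), 4 for 48 h (13.3%), 4 for 72 h (19.4%), 4 in the joint test (15.6%), 2 for 72 h against 12 h (6.33%) and 2 late against early (15.6%). Without those libraries and without the block 0 passed for 18 h (0.224%), 3 for 48 h (3.68%) and 2 late against early (9.58%). DESeq2 gave 1 for 12 h (0.782%), 3 for 18 h (3.76%), 3 for 48 h (2.39%), 1 for 72 h against 12 h (0.706%), 2 late against early (9.28%), 1 for DHT with bicalutamide against DHT in BicR (0.0677%) and 1 for the difference in response to DHT (0.0226%). With no TMM factor 0 passed for 18 h (0.606%) and 1 in the joint test (1.46%), and with no filter 2 passed for 18 h (1.23%). Without the 4 libraries under 500000 tags the joint test had 2, SAT1 and SRM (6.59%), while 6 h had 1 (7.91%), 18 h had 3 (8.44%) and 48 h had 2 (3.05%). With no term for time 1 passed for DHT against ethanol in BicR (1.4%), 0 for DHT with bicalutamide against ethanol in BicR (0.572%) and 0 between the lines (3.39%). With the 6 h library of combined DHT and bicalutamide in BicR left out, 1 passed for the difference in response to DHT (0.0151%).

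Leaving out each library in turn changed which genes passed, as given above for single genes. In these omissions the log2 change of SAT1 ranged from 2.92 to 3.79 at 48 h and from 2.91 to 4.12 at 72 h. That of ODC1 ranged from 2.52 to 2.88 at 12 h and from −0.43 to 1.04 at 72 h. For SRM at 6 h the range was −3.29 to −1.29. With DHT against ethanol in BicR, ODC1 ranged from 1.41 to 1.54, SAT1 from 0.70 to 1.31 and SMS from 0.57 to 1.07. Where an omission left 1 library in an arm, that library was assumed to vary like the rest. Log2 changes of single sites were followed where they passed in the main fit or with the replicate block (the joint test has none). Where a change passed only with the block, its gain under the block was fixed by this choice. Over the 25 changes followed and their 287 alternatives, 0 reversed, 27 lost and 41 gained a call. The cause was not tested, except that omissions use fewer libraries. The shallow time course libraries limit SRM most, with as few as 12 tags.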
